A study of Mus musculus with 26 samples.

Results

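The immunoglobulin transcripts of the proximal small intestine were followed in tamIEC-KO mice, and 17 genes were taken as members of the group described here. A gene was a member if its symbol named an immunoglobulin variable gene (Ighv, Igkv or Iglv), a constant-region gene of the heavy chain (Igha, Ighm, Ighd, Ighe and the Ighg genes) or of the light chains (Igkc and the Iglc genes), or Jchain, and if its counts summed over all 26 libraries to at least 100. Of 55487 genes in the table, 362 had such a symbol, 178 of these had any count and 184 had none. The members were thus chosen by their summed counts, and the order of their levels is a description.

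The study deleted a floxed gene in the intestinal epithelium of adult mice by tamoxifen (tamIEC-KO). Knockout mice (genotype label tg) carried the loxP-flanked alleles and the Villin-creERT2 transgene, and controls (label wt) were littermates with the same floxed alleles and without the transgene. Both genotypes were on the C57BL/6N background and received 5 daily injections of 1 mg tamoxifen. Mice induced in this way were 8 to 12 weeks old. RNA was taken from a piece of about 0.5 cm of whole intestinal wall just behind the stomach, 3 days after the last injection (wt.3d, n = 7; tg.3d, n = 7) or 7 days after it (wt.7d, n = 6; tg.7d, n = 6), with 1 mouse per library. The Villin promoter drives Cre in epithelial cells, so the cells that make immunoglobulin carry the floxed alleles without being a target of the deletion. The tissue was not sorted, so that fewer immunoglobulin-producing cells and less transcript per cell cannot be told apart in these libraries. All levels are relative to the other transcripts of a library. Absolute amounts were not measured, as the 92 spike-in entries had 0 counts.

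An antibody is built from heavy and light chains, each joined from a variable and a constant region, and the heavy-chain constant region sets the isotype. In the lamina propria of the small intestine most antibody is IgA, which plasma cells secrete as dimers held together by the J chain. The polymeric immunoglobulin receptor (Pigr) of the epithelium carries these dimers into the lumen. Each clone of plasma cells uses 1 variable gene per chain, while IgM and IgD are also carried as surface receptors by B cells that have not yet become plasma cells.

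The sequences of members that differ by few bases are shown first, because they set how well their counts can be told apart. The 3 lambda constant genes lie on the minus strand of chromosome 16 (GRCm38), and their last 120 coding bases are given for Iglc1 (chr16:19061752-19061871), Iglc2 (chr16:19198536-19198655) and Iglc3 (chr16:19065365-19065484). Capitals mark bases that differ from both of the other genes.
Iglc1: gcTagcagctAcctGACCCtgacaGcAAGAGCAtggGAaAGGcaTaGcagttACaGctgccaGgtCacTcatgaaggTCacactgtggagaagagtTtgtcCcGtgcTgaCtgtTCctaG
Iglc2: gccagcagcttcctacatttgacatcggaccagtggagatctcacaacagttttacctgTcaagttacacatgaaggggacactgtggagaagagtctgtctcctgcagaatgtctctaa
Iglc3: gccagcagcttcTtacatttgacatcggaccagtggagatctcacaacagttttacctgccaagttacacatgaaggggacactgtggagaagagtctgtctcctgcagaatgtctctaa
Iglc2 and Iglc3 differed at 2 of these 120 bases and at 11 of their 317 coding bases, whereas Iglc1 differed from each at 39 of the 120. Of the windows of 35 bases in their transcripts, 83.7% in Iglc2 and 78.5% in Iglc3 occurred in no other gene, and the shared windows were shared between these genes (and Iglj2, which overlaps Iglc2). Iglc2 and Iglc3 counts are therefore uncertain against each other, and Iglc3 also overlaps the antisense gene 2010309G21Rik. All windows were unique for Igha, Igkc, Jchain, Iglc1, Ighm, Ighd and Iglv3.

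The secreted tails of the IgA and IgM heavy chains are shown because they carry the cysteine to which the J chain is bound. These are the last 66 coding bases of the secreted form of Igha (chr12:113258768-113258833) and Ighm (chr12:113420867-113420932), both on the minus strand of chromosome 12 (GRCm38), with that cysteine codon in capitals. The counts are per gene and do not separate secreted from membrane transcripts.
Igha secreted tail: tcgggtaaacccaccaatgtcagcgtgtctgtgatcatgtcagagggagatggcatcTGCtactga
Ighm secreted tail: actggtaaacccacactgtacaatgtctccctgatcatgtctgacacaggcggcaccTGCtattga

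For the 4 heavy-chain variable members, the last 75 bases of the germline gene are shown, with the codon of their last cysteine, just before the join to the D segment, in capitals. All are on the minus strand of chromosome 12 (GRCm38), for Ighv3-6 at chr12:114288152-114288226, for Ighv1-82 at chr12:115952538-115952612, for Ighv1-26 at chr12:114788372-114788446 and for Ighv9-3 at chr12:114140692-114140766.
Ighv3-6: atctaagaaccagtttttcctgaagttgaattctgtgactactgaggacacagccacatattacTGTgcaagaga
Ighv1-82: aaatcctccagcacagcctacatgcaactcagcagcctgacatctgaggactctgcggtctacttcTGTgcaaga
Ighv1-26: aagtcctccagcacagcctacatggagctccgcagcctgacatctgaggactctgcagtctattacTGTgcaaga
Ighv9-3: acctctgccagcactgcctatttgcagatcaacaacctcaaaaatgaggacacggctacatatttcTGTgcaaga
Windows of 35 bases were unique for 89.1% of Ighv3-6, 66.8% of Ighv1-82, 62.5% of Ighv9-3 and 30.3% of Ighv1-26. The rest of each gene is shared with other genes of its family, so the counts of the last 3 are uncertain. Iglv1 shares windows with Iglv2 and had 66.1% unique.

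Library totals ranged from 3720168 to 6338016 counts. Some libraries had many counts of pancreas or stomach markers, and whether their pieces held neighbouring tissue was not tested. Markers of pancreas summed to 31.9 to 28595 CPM and markers of stomach to 1.58 to 25956 CPM per library, and 13 of 26 libraries had over 1000 CPM of either. A list of 15 B cell markers summed to 44.0 to 278 CPM, and 6 libraries were set apart as B cell rich, namely 2 of wt.3d (278 and 230 CPM), 1 of tg.3d (207 CPM) and 3 of tg.7d (225, 161 and 102 CPM). The 6 were chosen after seeing the data and are those over 1.5 times the median of their day (98.8 CPM at 3 days and 61.8 CPM at 7 days). No wt.7d library was over that limit, so at 7 days leaving out the set takes away knockouts only. The next below that limit was wt.3d replicate 2 with 144 CPM, at 1.46 times the median. The sum leans on its most abundant genes. Ebf1 and Cd72 averaged 16.9 and 15.6 of 52.9 CPM in wt.7d, and 39.9 and 16.8 of 112 CPM in tg.7d. The B cell rich controls of day 3, wt.3d replicates 4 and 6, are also the only wt.3d libraries under 1000 CPM for both pancreas and stomach markers.

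Among the members, Igha, the constant region of the IgA heavy chain, held 56.7% of all member counts over the 26 libraries. Igkc, the kappa light chain, held 37.4% and Jchain 4.42%, so these 3 genes made up 98.5% of the counts. The lambda gene Iglc1 followed with 25418 counts, then Iglc2 with 3765.5, Ighm with 3696, Iglc3 with 3632, Ighg2b with 2338, Iglv1 with 1330, Ighg1 with 748, Iglv3 with 682 and Ighd with 338. The libraries hold tags from the 3′ ends of transcripts, and these counts are not scaled to transcript length. At the limit of 100 counts, Ighv9-3 with 101 counts was just inside, and Ighv7-1 with 98 and Ighg2c with 90 were just outside. Ighe, the IgE heavy chain, was counted in only 2 libraries (4 and 3 counts), both at 3 days. Of the 17 members, 12 would reach the limit without the counts of the group in which they were highest. The other 5 (Ighv3-6, Ighv1-82, Ighg3, Ighv1-26 and Ighv9-3) would not, and their differences between groups are in part set by this choice.

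Together the 17 members took 3.68 ± 1.20% of all counts in wt.3d (SD, n = 7), 2.37 ± 0.768% in tg.3d (n = 7), 1.74 ± 0.506% in wt.7d (n = 6) and 0.562 ± 0.144% in tg.7d (n = 6). Single libraries ranged from 2.13% to 5.45%, from 1.55% to 3.82%, from 1.19% to 2.53% and from 0.449% to 0.842%, in the same order. The 7-day knockouts were the only group that overlapped with no other group in this share. Igha was between the 5th and the 10th most abundant gene of every library in the other 3 groups, and between the 12th and the 19th in tg.7d.

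The comparison of the genotypes at 7 days asked how the deletion in the epithelium went with immunoglobulin transcripts in the same tissue. IgA, kappa and J chain transcripts were about 3 times lower in knockout than in control mice. At an adjusted p under 0.05, 6 of the 17 members were lower (Igha, Igkc, Jchain, Iglc1, Iglc3 and Iglv1) and 1 was higher (Ighd), against 18.8% lower and 19.7% higher among the 20259 genes tested. The median log2 fold change of the 17 members was -1.07, beside -0.0191 over all genes tested. For the 12 members that do not depend on their highest group it was -1.28, with the same 6 lower and 1 higher. In 4 of 17 members (Igha, Igkc, Jchain and Iglv1) all 6 knockout mice lay below all 6 controls, against 11.6% of all genes tested, and in 0 of 17 above, against 11.0%.

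Igha was 6817 at the lowest, 9832 at the median and 13987 CPM at the highest in controls 7 days after tamoxifen. In knockouts it was 2487 at the lowest, 2801 at the median and 4708 CPM at the highest. All knockout mice thus lay below the lowest control, and Igha was 3.16-fold lower (log2 fold change -1.66, SE 0.17, edgeR adjusted p = 3.75e-07). Igkc, which encodes the light chain of most mouse antibodies, was 4492 at the lowest, 6324 at the median and 9444 CPM at the highest in controls. In knockouts it was 1783 at the lowest, 1988 at the median and 3175 CPM at the highest, again without overlap. Igkc was 2.81-fold lower (log2 fold change -1.49, SE 0.16, edgeR adjusted p = 7.36e-07). Jchain, the joining chain of IgA dimers and IgM pentamers, was 432 at the lowest, 726 at the median and 1158 CPM at the highest in controls and 181 at the lowest, 242 at the median and 363 CPM at the highest in knockouts. All 6 knockouts were below all controls for Jchain too, and it was 2.95-fold lower (log2 fold change -1.56, SE 0.19, edgeR adjusted p = 3.34e-06). Leaving out any 1 mouse kept the log2 fold change of Igha between -1.82 and -1.59, that of Igkc between -1.62 and -1.40 and that of Jchain between -1.71 and -1.45, all past the threshold. Without the 3 B cell rich knockout libraries the values were -1.82 for Igha, -1.71 for Igkc and -1.62 for Jchain, and without the pancreas or stomach rich libraries -1.40, -1.22 and -1.20, all past the threshold. The first of these fits leaves out no control, and the 3 knockouts include the highest for Igha.

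**Figure D1:**
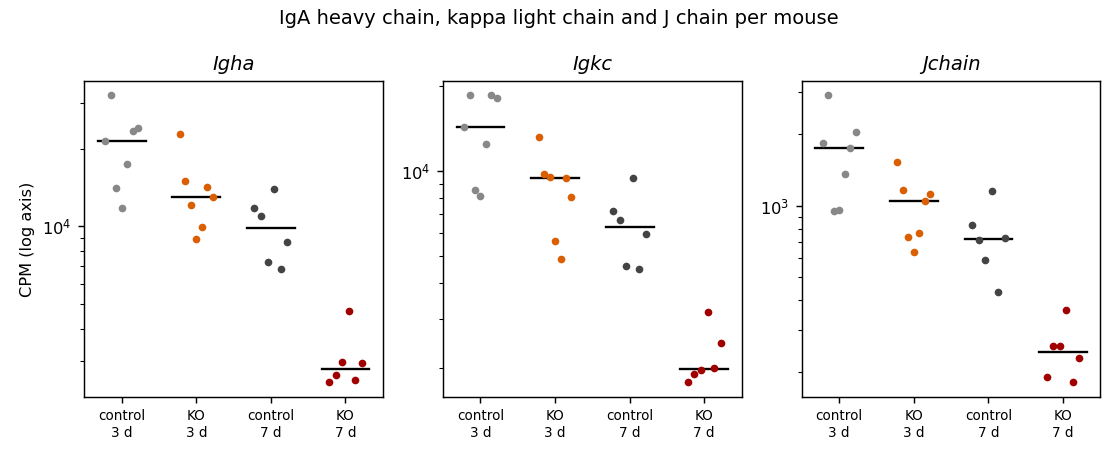
Igha, Igkc and Jchain in CPM on a log axis, with 1 point per mouse and a line at the median of each group (control 3 d, n = 7; KO 3 d, n = 7; control 7 d, n = 6; KO 7 d, n = 6). The 6 knockout mice at 7 days lie below all other mice in each panel, with Igha between 2487 and 4708 CPM.

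At 3 days the genotypes overlapped for all members but 1, Ighv3-6, which is a member only through its counts in wt.3d (of all genes tested, 0.491% had all knockouts below and 0.356% above all controls). Igha was 11815 at the lowest, 21432 at the median and 32140.0 CPM at the highest in controls and 8960.1 at the lowest, 12979 at the median and 22785 CPM at the highest in knockouts, a difference that did not pass the test (log2 fold change -0.49, SE 0.23, edgeR adjusted p = 0.352). Igkc was 8108 at the lowest, 14214 at the median and 18456 CPM at the highest in controls and 4872 at the lowest, 9403 at the median and 13188 CPM at the highest in knockouts (log2 fold change -0.60, SE 0.24, edgeR adjusted p = 0.255). Jchain was 945 at the lowest, 1744 at the median and 2910.0 CPM at the highest in controls and 636 at the lowest, 1044 at the median and 1527 CPM at the highest in knockouts (log2 fold change -0.65, SE 0.25, edgeR adjusted p = 0.233). In each of these genes the control and knockout mice overlapped, with 2 or 3 of the 7 knockouts below all controls. Of the 16 members tested at 3 days (Ighd had too many zeros), edgeR called 0 higher and 1 lower, Ighv3-6, against 1.11% higher and 0.323% lower among 20760 genes. At an unadjusted p under 0.05, 6 were lower and 0 higher, and DESeq2 called 3 lower and 0 higher. Of the 16 log2 fold changes 14 were negative, with a median of -0.488 beside -0.0313 over all genes tested. Among the 11 tested members that do not depend on their highest group, edgeR called 0 (5 lower and 0 higher at an unadjusted p under 0.05, and DESeq2 called 2 lower, Iglc3 and Iglc2), with a median of -0.489.

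Whether the genotype effect differed between the days was tested with the interaction of genotype and day over all 26 libraries. Of 16 members tested, 3 had a lower effect at 7 than at 3 days and 0 a higher one, against 9.74% and 8.64% of 19604 genes (at an unadjusted p under 0.05, 5 lower and 2 higher). The 3 were Igha (difference of log2 fold changes -1.16, SE 0.31, edgeR adjusted p = 0.00802), Iglv1 (difference of log2 fold changes -2.15, SE 0.51, edgeR adjusted p = 0.00315) and Iglc1 (difference of log2 fold changes -2.84, SE 0.93, edgeR adjusted p = 0.031). Igkc (difference of log2 fold changes -0.87, SE 0.31, edgeR adjusted p = 0.0514) and Jchain (difference of log2 fold changes -0.89, SE 0.34, edgeR adjusted p = 0.066) did not pass, so that a difference between the days was not shown for them. The DESeq2 test called both (adjusted p = 0.0236 and 0.036), and leaving out single mice moved the number of lower members between 2 and 5. Igha and Iglv1 kept their call without any 1 mouse. Iglc1 lost it without tg.3d replicate 1 or 6, tg.7d replicate 1, 2 or 6, or wt.7d replicate 2 or 4, with differences between -2.75 and -2.28. Without the pancreas or stomach rich libraries, which leaves 2 control mice per day, 0 members passed, with a difference of -0.89 for Igha (edgeR adjusted p = 0.128), -3.04 for Iglc1 (adjusted p = 0.12) and -1.72 for Iglv1 (adjusted p = 0.288). The 2 controls left at 3 days are the B cell rich ones. Without the B cell rich libraries, Ighg2b (-2.06, adjusted p = 0.0416) and Iglv3 (-2.68, adjusted p = 0.00316) passed as well. At 7 days those libraries are knockouts only.

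Immunoglobulin transcripts also differed between the control groups of both days. These are the same control mice as in the comparisons above, and day cannot be told apart from anything else that separated the 3-day from the 7-day mice. Igha was 11815 to 32140.0 CPM (median 21432) at 3 days and 6817 to 13987 CPM (median 9832) at 7 days, with overlap between the days (log2 fold change -0.70, SE 0.22, edgeR adjusted p = 0.0199). Of the 17 members, 8 were lower at 7 days and 0 higher (also 0 higher at an unadjusted p under 0.05 and by DESeq2), against 16.3% lower and 19.7% higher among 20646 genes. The median was -1 over the members and -0.0556 over all genes tested. Ighv3-6 and 3 of the members not called (Ighg3, Ighv1-26 and Ighv9-3) reach 100 counts only through wt.3d, so this count and median are in part set by the choice of members. Of the 12 members that do not depend on their highest group, 7 were lower and 0 higher, with a median of -0.832. Those lower were Igha, Igkc (log2 fold change -0.78), Jchain (-0.83), Iglc2 (-0.84), Ighm (-1.50), Ighg1 (-1.97), Iglv3 (-1.11) and Ighv3-6 (-1.84). Without the 2 B cell rich controls of day 3, Ighm moved to -0.49 (edgeR adjusted p = 0.0199) and Iglc2 to -0.81 (adjusted p = 0.0668). Without the pancreas or stomach rich libraries Ighv3-6 lost its call (-1.46, adjusted p = 0.0864), and Ighd (-4.82, adjusted p = 0.00017), Ighg3 (-3.09, adjusted p = 0.00948) and Ighg2b (-1.46, adjusted p = 0.000442) passed. The only controls of day 3 left in that fit are the 2 B cell rich ones. With those 2 left out instead, Ighd was 1.15 (edgeR adjusted p = 0.439), Ighg3 -0.957 (adjusted p = 0.49) and Ighg2b -0.692 (adjusted p = 0.129). The call of Iglc2 also depended on single mice, as it was lost without wt.3d replicate 1, 2 or 6 or wt.7d replicate 2, 3, 5 or 6 (log2 fold change between -0.81 and -0.71). Smooth muscle markers (8 of 8) and markers of stroma and endothelium (10 of 10) were lower at 7 days in the same controls and epithelial markers higher (7 of 8). B cell markers (9 of 13, median -1.46), myeloid markers (7 of 11, median -0.704) and plasma cell genes (6 of 15 lower and 1 higher, median -0.547) were lower there too. T cell markers went more the other way (5 of 12 higher and 2 lower, median 0.367). Genes for IgA transport, homing and survival were mixed (4 of 14 higher and 4 lower, median -0.184). The part of these lists in the immunoglobulin values was not tested.

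Among the lambda light chains, Iglc1 and Iglc3 varied more between the mice of each group than the kappa chain. The highest and the lowest mouse of a group differed by a factor of 1.78 to 2.71 for Igkc, 6.15 to 24.1 for Iglc1 and 4.85 to 21.8 for Iglc3. For Iglc2 (1.70 to 8.87) and Iglv3 (2.22 to 20.8) the factor was below that of Igkc in tg.3d. Iglc1, the constant region of lambda 1, was 38.4 at the lowest, 119 at the median and 634 CPM at the highest in controls at 7 days. In knockouts it was 12.4 at the lowest, 24.8 at the median and 76.1 CPM at the highest. The groups overlapped, with 4 of 6 knockouts below all controls, and Iglc1 was 6.36-fold lower (log2 fold change -2.67, SE 0.61, edgeR adjusted p = 0.00179). Without wt.7d replicate 4, the call held at a log2 fold change of -2.13. At 3 days Iglc1 was 86.6 to 578 CPM (median 186) in controls and 25.2 to 608 CPM (median 124) in knockouts (log2 fold change 0.18, SE 0.58, edgeR adjusted p = 0.934), and its sign turned without tg.3d replicate 1 (-0.15) or 6 (-0.22).

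Iglv1, a lambda variable gene that is joined to Iglc1 or Iglc3, was 4.04 at the lowest, 10.2 at the median and 15.1 CPM at the highest in controls at 7 days. In knockouts it was 0.701 at the lowest, 2.2 at the median and 2.65 CPM at the highest. No knockout reached the lowest control, and Iglv1 was 5.08-fold lower (log2 fold change -2.35, SE 0.30, edgeR adjusted p = 4.71e-06). At 3 days it was 8.76 to 23.8 CPM (median 13.5) in controls and 2.01 to 22.5 CPM (median 9.88) in knockouts (log2 fold change -0.18, SE 0.34, edgeR adjusted p = 0.878). Iglc3 was 9.39 to 64.8 CPM (median 14.5) in controls and 2.01 to 15.1 CPM (median 5.28) in knockouts at 7 days, with overlap (log2 fold change -1.69, SE 0.48, edgeR adjusted p = 0.00871). The control wt.7d replicate 1 held the highest Iglc3, and without it the log2 fold change was -1.07 (edgeR adjusted p = 0.0321). Iglc2 was 11.6 to 43.7 CPM (median 18.9) in controls and 3.33 to 29.5 CPM (median 9.56) in knockouts at 7 days (log2 fold change -0.88, SE 0.38, edgeR adjusted p = 0.0785). Iglc2 passed without tg.7d replicate 6 (-1.43, adjusted p = 0.00218) and without wt.7d replicate 2 (-1.01) or 5 (-1.04). Iglv3 was 2.17 to 4.81 CPM (median 3.25) in controls and 0.19 to 3.95 CPM (median 1.26) in knockouts, with 5 of 6 knockouts below all controls (log2 fold change -1.07, SE 0.47, edgeR adjusted p = 0.0856), and passed without tg.7d replicate 5 (-1.64, adjusted p = 0.00939). Without the 3 B cell rich knockouts, Iglc2 (-1.85, adjusted p = 0.00187) and Iglv3 (-3.13, adjusted p = 0.000157) both passed. That fit leaves out no control, and the 3 knockouts include the highest for Iglc2, so these values are in part set by the choice. Without the pancreas or stomach rich libraries, Iglc2 moved the other way, to -0.39 (adjusted p = 0.679), and Iglv3 was -2.26 (adjusted p = 0.0116).

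At 3 days Iglc2 was 21.9 to 73.7 CPM (median 51.1) in controls and 19.4 to 33 CPM (median 27.7) in knockouts (log2 fold change -0.83, SE 0.22, edgeR adjusted p = 0.0683). It passed without tg.3d replicate 1 (adjusted p = 0.0424) or wt.3d replicate 3 (adjusted p = 0.0124), and without the pancreas or stomach rich libraries (-1.15, adjusted p = 0.0192). The only controls left in that last fit are the B cell rich ones. Without the B cell rich libraries Iglc2 was -0.75 (edgeR adjusted p = 0.301). Iglc3 was 11 to 239.7 CPM (median 23.2) in controls and 6.04 to 29.3 CPM (median 13.9) in knockouts (log2 fold change -1.96, SE 0.60, edgeR adjusted p = 0.129), and without wt.3d replicate 2, which held 35.5% of all Iglc3 counts, the log2 fold change was -1. Iglv3 was 4.03 to 13.9 CPM (median 8.69) against 3.15 to 8.41 CPM (median 6.65) (log2 fold change -0.49, SE 0.25, edgeR adjusted p = 0.426). The counts of Iglc1 over those of Iglc2 and Iglc3 together ranged from 0.422 to 14.6 between mice, while those of Igkc over Igha ranged from 0.492 to 0.836.

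Of the other heavy-chain isotypes, Ighd was higher in knockouts at 7 days, and Ighm, Ighg1, Ighg2b and Ighg3 did not pass the test. Ighm, the IgM heavy chain, was 7.18 at the lowest, 11.4 at the median and 13.5 CPM at the highest in controls at 7 days. In knockouts it was 2.45 at the lowest, 20.9 at the median and 69.1 CPM at the highest. Of the 6 knockouts 4 lay above all controls and 2 below, and the difference did not pass the test (log2 fold change 1.27, SE 0.50, edgeR adjusted p = 0.0538). It passed without tg.7d replicate 1 (adjusted p = 0.0074) or 3 (adjusted p = 0.0164). Ighd, the IgD heavy chain of mature B cells, had 5, 0, 0, 0, 3 and 1 counts in the 6 controls and 2, 2, 0, 45, 83 and 19 in the 6 knockouts. It was higher in knockouts at 7 days (log2 fold change 3.90, SE 1.04, edgeR adjusted p = 0.00603), and this rested on 3 mice, tg.7d replicates 4, 5 and 6. Without wt.7d replicate 1, 5 or 6 it had too many zeros to be tested.

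These 3 knockouts were the B cell rich libraries of that group. The B cell list summed to 161, 225 and 102 CPM in them, against 44.0 to 62.1 CPM in the 6 controls and 54.7 to 64.0 CPM in the other 3 knockouts. Of 12 B cell markers tested at 7 days 7 were higher in knockouts and 0 lower, against 19.7% higher and 18.8% lower over all genes tested. Their median log2 fold change was 1.32, and Ms4a1 (log2 fold change 4.04) and Pax5 (4.02) were among the 7. Ms4a1 and Pax5 were each at 0 counts in 2 of the 6 controls. Without the 3 libraries 1 of 10 tested B cell markers was higher and 3 lower, the log2 fold change of Ighd was -0.19 (edgeR adjusted p = 0.925) and that of Ighm -0.45 (adjusted p = 0.423). The 3 were picked by the sum of these same markers, so the loss of the marker rise was set by that choice. Ighd was highest among the knockouts in the same 3, so its change is not a separate result. Without the pancreas or stomach rich libraries, which include tg.7d replicates 4 and 5, Ighd also lost its call (1.75, edgeR adjusted p = 0.417). At 3 days the highest Ighm and Ighd were likewise in B cell rich libraries, with Ighm at 115 and 70.5 CPM in wt.3d replicates 4 and 6 and at 78.8 CPM in tg.3d replicate 7. Ighd in those libraries was 15.3, 6.86 and 10.3 CPM, and at most 1.11 CPM in the other 11 mice of day 3.

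**Figure D2:**
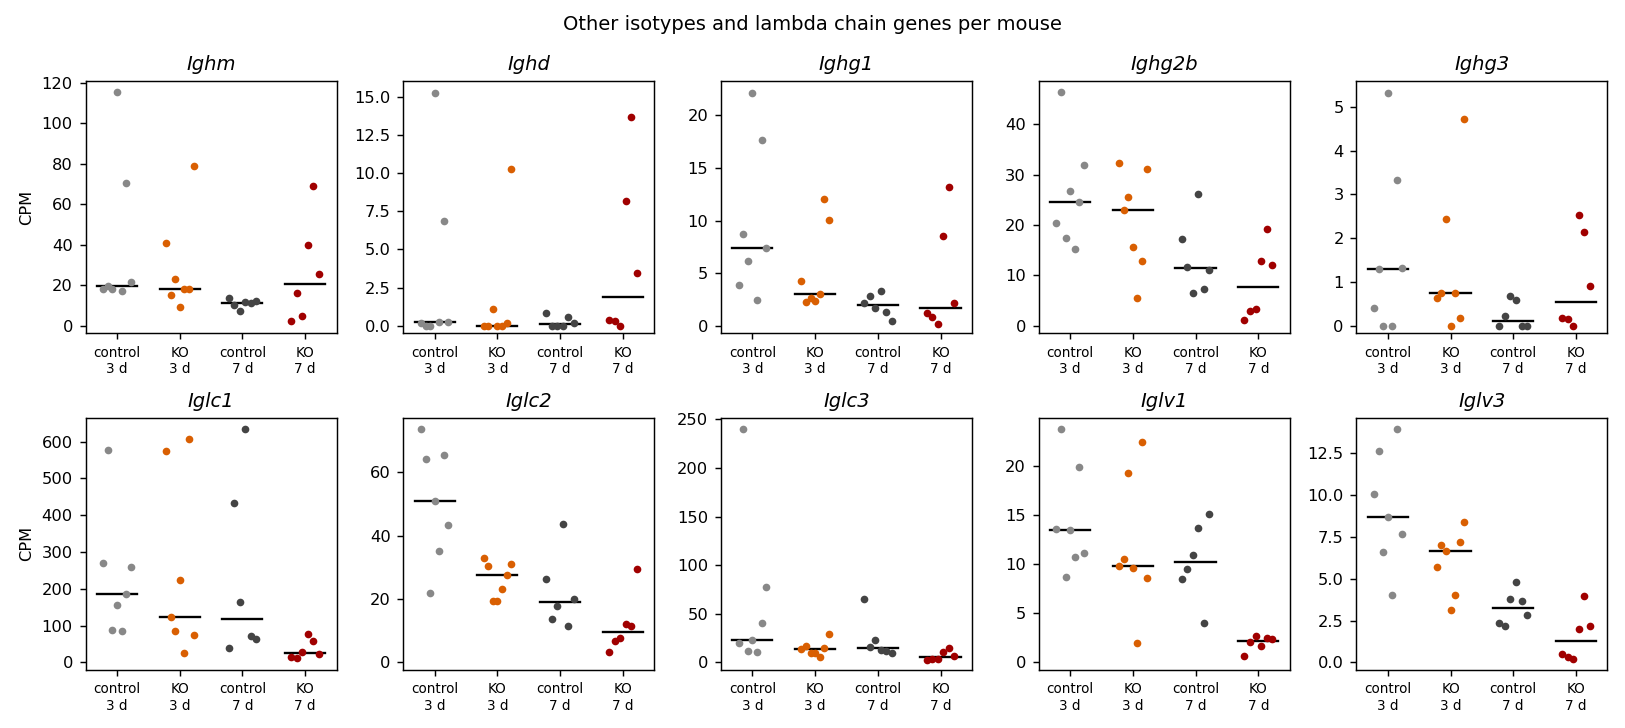
The other heavy-chain isotypes (upper row) and the lambda genes (lower row) in CPM on linear axes, with 1 point per mouse and a line at the median of each group (control 3 d, n = 7; KO 3 d, n = 7; control 7 d, n = 6; KO 7 d, n = 6). Ighd lies near 0 in most mice and reaches 13.7 CPM in the 7-day knockouts, while Iglv1 in the 7-day knockouts stays at or below 2.65 CPM.

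Ighg1, an IgG heavy chain, was 0.473 to 3.27 CPM (median 1.96) in controls and 0.19 to 13.2 CPM (median 1.69) in knockouts at 7 days (log2 fold change 1.18, SE 0.66, edgeR adjusted p = 0.178). Ighg2b was 6.5 to 26.2 CPM (median 11.4) in controls and 1.05 to 19.3 CPM (median 7.64) in knockouts (log2 fold change -0.61, SE 0.47, edgeR adjusted p = 0.341). Ighg3 was 0 to 0.684 CPM (median 0.109) and 0 to 2.54 CPM (median 0.538) (log2 fold change 1.94, SE 0.91, edgeR adjusted p = 0.104). Each of the 3 IgG genes overlapped between genotypes, and each was highest among the knockouts in B cell rich mice. Without those 3 mice the log2 fold change of Ighg1 was -1.31, that of Ighg3 -0.93 and that of Ighg2b -2.43, of which Ighg2b passed (edgeR adjusted p = 0.000762). No control was left out, so these lower values are in part set by the choice of mice. At 3 days Ighm (-0.40), Ighg1 (-0.80), Ighg2b (-0.22) and Ighg3 (-0.28) had negative log2 fold changes, and no call.

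**Figure D3:**
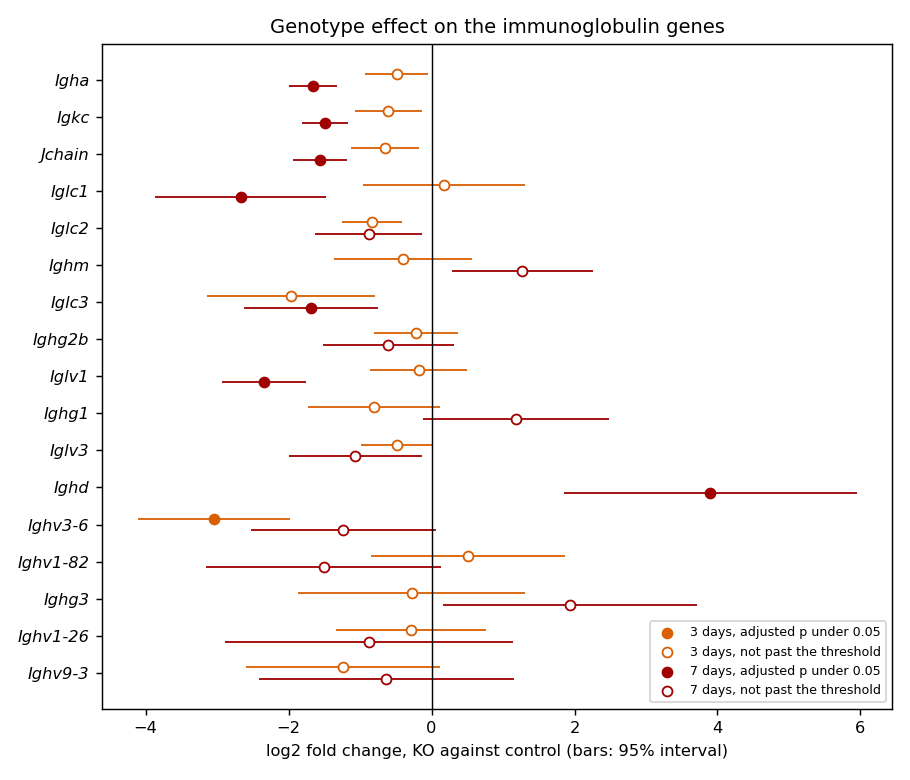
The log2 fold change between knockout and control for each member at 3 and at 7 days, with bars of the 95% interval (14 and 12 mice). Filled points passed an adjusted p of 0.05, namely Ighv3-6 at 3 days and 7 members at 7 days, of which only Ighd lies to the right of 0.

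The makeup of the transcripts was compared as ratios of counts within each mouse. Igha made up 99.7 ± 0.0357% of the heavy-chain constant counts in controls at 7 days (SD, n = 6; 99.7% to 99.8%) and 98.5 ± 1.59% in knockouts (n = 6; 95.5% to 99.8%). The difference did not pass a two-sided exact permutation test (p = 0.0541, 0.541 after Benjamini-Hochberg adjustment over 10 such tests). The difference was -1.21 percentage points, and -0.601 without tg.7d replicate 5, the highest in B cell markers among the knockouts of that day. At 3 days the share of Igha was 99.5 ± 0.493% in controls and 99.6 ± 0.281% in knockouts (n = 7 each, exact p = 0.868). The lambda genes Iglc1, Iglc2 and Iglc3 made up 3.82 ± 2.39% of light-chain constant counts in controls and 2.29 ± 1.12% in knockouts at 7 days (n = 6 each, exact p = 0.193), and 2.27 ± 1.18% and 2.99 ± 2.09% at 3 days (n = 7 each, exact p = 0.450). Jchain had 7.47 ± 0.936 counts per 100 Igha counts in controls and 8.07 ± 0.931 in knockouts at 7 days (n = 6 each, exact p = 0.281), and 8.04 ± 0.783 and 7.35 ± 0.808 at 3 days (n = 7 each, exact p = 0.124). None of the 10 tests passed, with or without adjustment.

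Variable genes were seen at low counts and spread over many genes. Of 185 Ighv genes 84 had a count, with 1727 counts over all libraries, and 4 were members. Of 160 Igkv genes 77 had a count, with 735.5 counts in all, and none was a member, whereas the 3 Iglv genes had 2029 counts and 2 of them were members. Igkc thus summed to 1047957 counts with no kappa variable gene at the limit of 100. For each 1000 heavy-chain constant counts a mouse had a median of 0.974 Ighv counts (0.415 to 4.02), and for each 1000 Igkc counts a median of 0.631 Igkv counts (0.166 to 1.55). The variable region lies at the 5′ end of the transcript, and reads over the rearranged join were not analysed here. The Ighv1 family, the largest of the mouse, held 47.8% of the Ighv counts in 42 of its 93 genes, Ighv3 held 11.0% and Ighv9 6.95%.

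A library held 7 to 142 Ighv counts (median 59) on 6 to 28 genes, and 2 to 92 Igkv counts (median 21.3) on 2 to 25 genes. The group medians of Ighv counts were 97 in wt.3d, 67 in tg.3d, 56.5 in wt.7d and 24.5 in tg.7d, and those of Igkv counts 40, 30, 20.3 and 10.5. To compare the spread at unequal depth, the effective number of genes was used, the inverse of the unbiased Simpson index, which is the number of equally used genes that would give the same chance of drawing the same gene in 2 counts. For Ighv it was 13.5 ± 6.56 in controls and 13.7 ± 8.12 in knockouts at 7 days (SD, n = 6 each, exact permutation p = 0.952), and 10.1 ± 3.61 and 11.6 ± 6.58 at 3 days (n = 7 each, exact p = 0.607). For Igkv it was 11.0 ± 5.70 (n = 6) and 12.96 ± 5.61 (n = 5, as 1 knockout had no gene with 2 counts) at 7 days (exact p = 0.578), and 12.9 ± 8.31 and 13.4 ± 4.96 at 3 days (n = 7 each, exact p = 0.885). The spread within each group exceeded these differences. At few counts the value is imprecise, as tg.7d replicate 2 had 21.0 effective Ighv genes from 7 counts on 6 genes. The knockout left out for Igkv had no finite value. Differences in usage within this spread were not detectable at this depth.

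**Figure D4:**
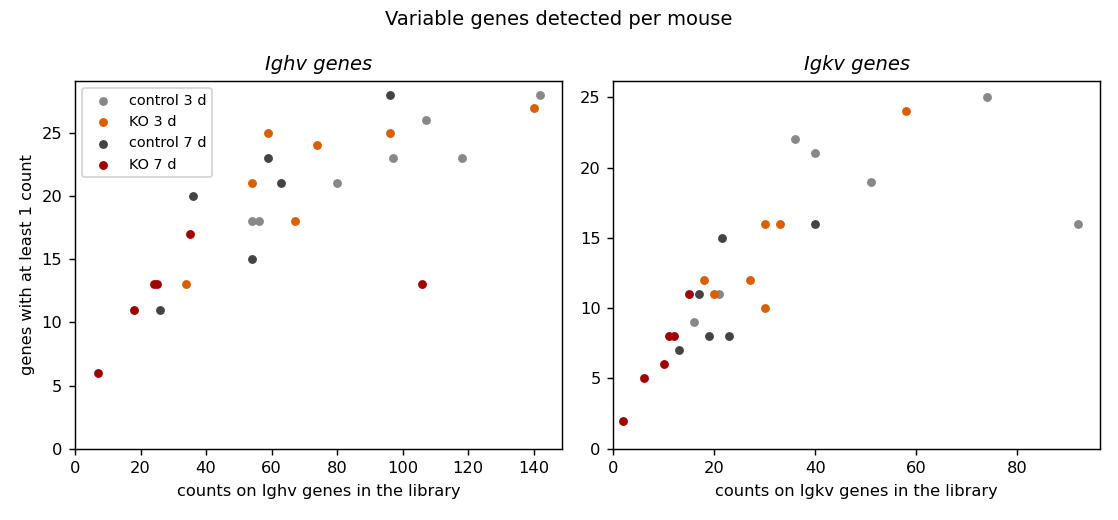
Number of Ighv genes (left) and Igkv genes (right) with at least 1 count in a library against the counts on those genes in that library, with 1 point per mouse coloured by group (n = 7, 7, 6 and 6). More counts go with more genes detected, and 1 knockout of day 7 with 106 Ighv counts shows only 13 genes.

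The variable gene that led differed from mouse to mouse. Over the 26 mice, 14 different Ighv genes and 16 different Igkv genes held the highest count of their locus. In tg.7d replicate 4, Ighv1-71 had 77 of the 106 Ighv counts (72.6%), which was 96.2% of all counts of that gene in the series. In tg.3d replicate 6, Ighv1-82 had 61 of 140 (43.6%), and in tg.3d replicate 1, Ighv7-1 had 39 of 96 (40.6%). Among kappa genes, Igkv11-106 had 48 of 92 counts in wt.3d replicate 7 (52.2%), Igkv3-2 had 12 of 23 in wt.7d replicate 3 (52.2%), and Igkv4-59 had 1 of 2 in tg.7d replicate 2 (50.0%), a share with no precision. The Igkv genes with the highest mean level were Igkv11-106 (60 counts in 6 libraries), Igkv5-43 (54 in 14), Igkv5-39 (50 in 13), Igkv3-2 (41 in 11) and Igkv19-93 (39 in 14), and the Ighv genes were Ighv3-6, Ighv1-82, Ighv1-26, Ighv7-1 and Ighv9-3.

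Ighv3-6 was the only heavy-chain variable gene past the threshold between the genotypes. At 3 days it was 1.19 at the lowest, 2.98 at the median and 7.4 CPM at the highest in controls (6 to 38 counts per library) and 0 at the lowest, 0.504 at the median and 0.841 CPM at the highest in knockouts (0 to 4 counts). All 7 knockouts lay below all 7 controls, and Ighv3-6 was 8.23-fold lower (log2 fold change -3.04, SE 0.54, edgeR adjusted p = 0.00675). The gene is a member only through its counts in wt.3d, so the sum that chose it favours this difference. Without the B cell rich libraries the log2 fold change was -2.97 (adjusted p = 0.0707). At 7 days it was 0.316 to 1.73 CPM (median 0.716) in controls and 0 to 0.906 CPM (median 0.345) in knockouts (log2 fold change -1.24, SE 0.66, edgeR adjusted p = 0.155), and it passed without the pancreas or stomach rich libraries (-2.76, adjusted p = 0.041). Ighv1-82 (0.51 at 3 days, -1.51 at 7 days), Ighv1-26 (-0.29 and -0.87) and Ighv9-3 (-1.24 and -0.63) had log2 fold changes that did not pass. Of 15 V genes tested at 3 days and 10 at 7 days, 1 passed at each day, Ighv3-6 and Iglv1.

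Genes of the plasma cell programme, which are not members but were counted in the same libraries, were largely lower at 7 days. Of 15 such genes 9 were lower and 2 higher, against 18.8% lower and 19.7% higher over all genes tested. Their median log2 fold change was -0.947. Tnfrsf17, the BCMA receptor of plasma cells, was 6.2 ± 1.97 CPM (SD, n = 6) in controls and 1.43 ± 0.345 CPM (SD, n = 6) in knockouts (log2 fold change -2.07, SE 0.26, edgeR adjusted p = 4.14e-06). Mzb1, a chaperone of immunoglobulin assembly, was 26.2 ± 5.8 CPM (SD, n = 6) and 8.73 ± 1.95 CPM (SD, n = 6) (log2 fold change -1.54, SE 0.15, edgeR adjusted p = 1.95e-07). Irf4 (-1.48), a transcription factor required for plasma cells, Eaf2 (-1.53), Slamf7 (-1.39), Derl3 (-1.33), Pou2af1 (-1.28), Txndc5 (-0.95) and Tnfrsf13b (-0.80) were also lower on the log2 scale. Sdc1 (1.12) and Fkbp11 (0.74) were higher. Sdc1 encodes CD138, which epithelial cells carry as well as plasma cells. Xbp1 (-0.13), Prdm1 (-0.29), Pim2 (-0.48) and Ell2 (0.24) did not pass. Which cells the counts of the 15 genes came from was not tested. At 3 days 0 of the 15 genes passed by edgeR or DESeq2 (7 were lower and 0 higher at an unadjusted p under 0.05), with a median of -0.402. The genotype effect on 4 of the 15 was lower at 7 than at 3 days and on 1 higher, against 9.74% and 8.64% of all genes tested. Without the pancreas or stomach rich libraries 0 were lower.

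Of 14 genes on a list for IgA transport, homing and survival, 9 were lower and 1 higher at 7 days. Over all genes tested 18.8% were lower and 19.7% higher, and the median log2 fold change of the list was -1.57. Pigr, the epithelial receptor that exports IgA, was 4063 ± 752 CPM (SD, n = 6) in controls and 106 ± 53.4 CPM (SD, n = 6) in knockouts, 37.5-fold lower (log2 fold change -5.23, SE 0.31, edgeR adjusted p = 2.87e-10). Ccl25, the epithelial chemokine that draws CCR9-bearing cells to the small intestine, was 624 ± 75.8 CPM (SD, n = 6) and 80.4 ± 7.12 CPM (SD, n = 6) (log2 fold change -2.93, SE 0.12, edgeR adjusted p = 1.26e-12). Ccl28, the ligand of CCR10 on IgA plasma cells, was 4.24 to 11.9 CPM (median 6.81) in controls and 0 to 0.35 CPM (median 0.181) in knockouts, where no library had over 2 counts. The receptors Ccr10 (-2.50) and Ccr9 (-1.65), the survival factors Tnfsf13 (APRIL, -2.06) and Tnfsf13b (BAFF, -1.68), the neonatal Fc receptor Fcgrt (-1.50) and the integrin Itgb7 (-1.23) were lower on the log2 scale. Madcam1, the vessel ligand of that integrin, was higher (1.95). At 3 days 0 of the 14 passed by edgeR or DESeq2 (4 were lower and 0 higher at an unadjusted p under 0.05). The median there was -0.354, and Pigr was 2072 ± 409 CPM (SD, n = 7) in controls and 1314 ± 411 CPM (SD, n = 7) in knockouts.

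**Figure D5:**
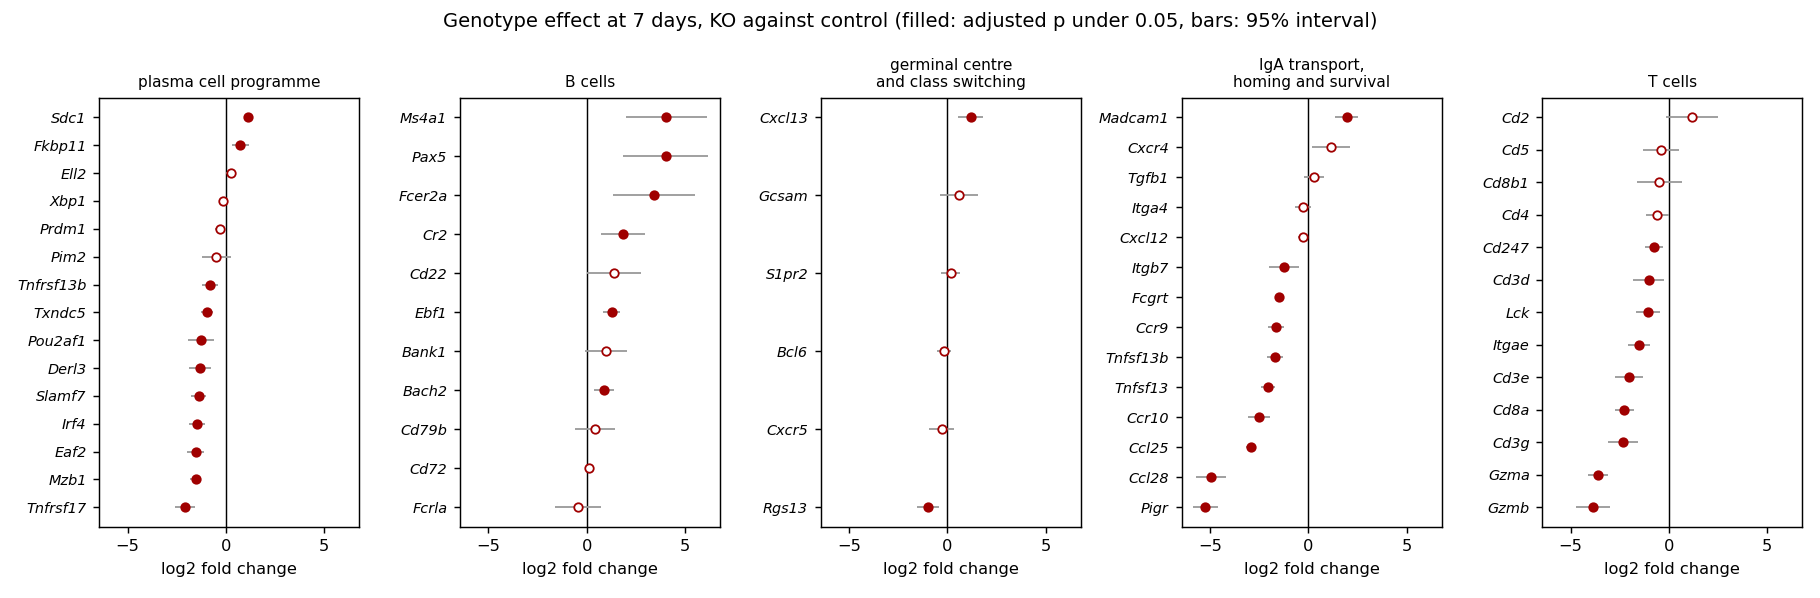
The log2 fold change between knockout and control at 7 days for genes of 5 lists (plasma cell programme, B cells, germinal centre and class switching, IgA transport with homing and survival, and T cells), with bars of the 95% interval over 12 mice (1 gene of the B cell list is not drawn). Filled points passed an adjusted p of 0.05. Most of the plasma cell, IgA transport and T cell genes lie left of 0 and most B cell genes right of it.

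Markers of other cell types were read against the 19.7% of all genes that were higher and the 18.8% that were lower at 7 days. Of 13 T cell markers 9 were lower and 0 higher (median -1.07), including Gzma (-3.61), Gzmb (-3.85) and Cd3e (-2.03), and their summed level was 14.7 to 44.7 CPM in knockouts against 113 to 179.9 CPM in controls. Much of that sum was Gzma, with a mean of 81.0 of 139 CPM in controls and 6.6 of 28.7 CPM in knockouts. Of 10 markers of stroma and endothelium 6 were higher and 0 lower, and of 8 epithelial markers 1 was higher and 5 lower. Of 11 myeloid markers 2 were higher and 1 lower and of 8 smooth muscle markers 1 was lower, shares no larger than over all genes, and of 6 tested germinal centre genes Cxcl13 was higher (1.18) and Rgs13 lower (-0.99). Of the pancreas and stomach lists 1 gene passed, a stomach marker that was lower. The part of these markers in the immunoglobulin values was not tested. At 3 days edgeR and DESeq2 called 0 genes of these lists (at an unadjusted p under 0.05, 1 T cell, 3 myeloid and 1 germinal centre gene were lower and 1 epithelial gene higher).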

How the data were processed

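Libraries of 3′ mRNA tags from 26 mice were analysed, with the estimated counts per gene as the authors deposited them as the starting point. Per the submitters' processing notes and the study's methods, reads were trimmed with cutadapt 2.10, aligned with Subread to GRCm38 plus spike-in sequences and counted on exons with featureCounts 2.0.1, in which reads over several genes were split and no option for strand is named. The authors tested genotypes per day with DESeq2. Of the values 95.0% are whole numbers, and all were rounded before the fits. The 92 spike-in entries had 0 counts. CPM are counts scaled to the library total, and the authors' own CPM table was not used.

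Groups followed the sample labels. Each day's genotypes, the interaction of genotype and day, and the controls of both days were compared by edgeR 4.0.16, quasi-likelihood F test (R 4.3.3, limma 3.58.1, TMM, Benjamini-Hochberg adjusted p under 0.05 over all genes tested), after leaving out genes at zero in most samples of a group. SEs were derived from F. Per-mouse ratios were compared with exact permutation tests. The members, gene lists and tests were chosen with earlier results of these data known. Named genes were all constant-region genes, Jchain and Iglv members, the 5 Ighv and 5 Igkv genes of highest mean CPM, V genes past the threshold (up to 3 per direction), the 3 per locus with the largest share in a mouse, those at the limit of 100 counts, and examples from the lists. DESeq2 1.42.0, other normalizations and filters, and fits without single mice or groups of libraries were tried. Sequences and positions came from the GENCODE transcripts and annotation of GRCm38. No litters or batches are labelled. The deleted gene and 1 gene of the B cell list are not reported here.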

Additional observations from a re-analysis of the deposited data

Results flagged for a closer look

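In 9 of 68 groups of mice tested, 1 mouse lay far from the others for a member, by the ratio of its gap to the whole range of the group. A nominal rate of 1 in 20 would give 3.4 of 68. The groups are not independent, as wt.3d replicate 2 and tg.3d replicate 6 were each flagged for more than 1 member. Some of the members also have low counts, so an excess over chance is not shown. Each such mouse was the highest of its group. Igha was 4710 CPM in tg.7d replicate 4, against 2990 CPM in the next mouse. Among the lambda genes, Iglc1 was 578 CPM in wt.3d replicate 2 (next 270.0), Iglc3 was 240 CPM in the same mouse (next 77.5) and 64.8 CPM in wt.7d replicate 1 (next 23.0), and Iglc2 was 29.5 CPM in tg.7d replicate 6 (next 12.1). Ighd was 10.3 CPM in tg.3d replicate 7 (next 1.11). Ighv1-82 was 10.2 CPM (next 1.66) and Ighv1-26 2.69 CPM (next 1.18) in tg.3d replicate 6, and Ighv9-3 was 0.758 CPM in tg.7d replicate 3 (next 0.18).

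For 3 members the genotype effect differed between the days in the edgeR interaction test. The effect at 7 days minus that at 3 days was -1.16 for Igha, -2.84 for Iglc1 and -2.15 for Iglv1 on the log2 scale.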

How the results depend on the processing

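The falls of Igha, Igkc, Jchain, Iglc1, Iglc3 and Iglv1 at 7 days kept their direction and stayed past the threshold under every alternative, with 6 to 9 members lower. The count of members lower at 3 days (1) was 3 by DESeq2, 0 with the filter of filterByExpr, 2 in a fit of all 26 libraries, 0 without the B cell rich and 2 without the pancreas or stomach rich libraries, and 1 to 2 without single mice. The count higher at 7 days (1, Ighd) was 0 with filterByExpr, 2 with no filter, 0 without either set of libraries and 0 to 2 without single mice (0 where Ighd was not tested, without wt.7d replicate 1, 5 or 6). The interaction count (3 lower) was 5 by DESeq2, 5 without the B cell rich libraries, 0 without the pancreas or stomach rich ones and 2 to 5 without single mice. The control count (8 lower) was 7 to 12 without single mice and 7 to 10 otherwise, and with no filter the median of all genes there moved to -0.122. filterByExpr tests fewer genes, and leaving out libraries leaves fewer mice. Beyond that the cause was not tested. Both sets of libraries were chosen after seeing the data. The B cell rich set was picked by its high B cell markers, and at 7 days it leaves out knockouts only. With the pancreas or stomach rich libraries left out, the only controls of day 3 are the B cell rich ones.

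Signs turned in members that had not been called, and in Ighd. Without the B cell rich libraries the log2 fold change at 3 days became 0.462 for Ighg3, 0.242 for Ighm and 0.00391 for Iglv1. At 7 days it became -1.31 for Ighg1, -0.927 for Ighg3, -0.188 for Ighd, -0.446 for Ighm and 0.0979 for Ighv9-3. In the interaction it became -1.03 for Ighg1, -1.33 for Ighg3, -0.646 for Ighm and -0.313 for Iglc3, and between the controls 1.15 for Ighd. Without the pancreas or stomach rich libraries it became -0.0723 for Ighv1-82 at 3 days, and -0.541 for Ighg1, -0.268 for Ighg3 and 1.71 for Ighv1-26 at 7 days. In the interaction it became 2.01 for Ighv1-26, -1.05 for Iglc3 and 0.789 for Iglc2, and between the controls -0.0813 for Iglc1. Without single mice the signs of these log2 fold changes turned: at 3 days Ighg3 -0.997 to 0.368, Ighm -0.83 to 0.12, Ighv1-26 -0.695 to 0.0889, Ighv1-82 -0.7 to 1.04 and Iglc1 -0.221 to 0.573, in the interaction Ighv9-3 -0.275 to 1.21, Iglc2 -0.554 to 0.245 and Iglc3 -0.674 to 0.917, and between the controls Iglc1 -0.21 to 0.753 and Iglv1 -0.271 to 0.0286. The knockout minus control difference in the Igha share at 3 days ran from -0.144 to 0.14 percentage points, that in effective Ighv genes from -0.21 to 2.61 (3 days) and -1.93 to 2.84 (7 days), and in effective Igkv genes from -1.01 to 2.97 and -0.0755 to 3.57. Fractional or rounded counts turned none of these signs.

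Whether the replicate numbers pair the mice is not labelled. Deviations of same-numbered mice correlated at -0.382 to 0.449 at 3 days and -0.243 to 0.418 at 7 days. Of the knockouts, 2 of 7 and 2 of 6 correlated best with their own number. So few pairs cannot show whether the numbers mark litters or batches. With the number as a replicate block, 1 member was lower at 3 days, 8 lower and 1 higher at 7 days and 4 lower in the interaction, and the sign turned for Iglc1 at 3 days (-0.242) and Iglc3 in the interaction (-0.158). A planned limit of 1000 counts for V genes was not run, since it leaves only Iglv1. Counts of 2 to 142 on V genes per library limit what can be said of their usage.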
